A study of Mus musculus with 4 samples.

Results

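Chemokines were examined as a family of 10 genes in the tendon of untreated mice: Ccl2, Ccl3, Ccl4, Ccl5, Ccl7, Ccl8, Ccl11, Cxcl1, Cxcl10 and Cxcl12. They were chosen by symbol, among probe sets that the platform annotation ties to exactly 1 gene; each of the 10 had 1 such probe set, out of 22180 genes measured. The study profiled normal gene expression in the 2 sexes. The Achilles and plantaris tendons of wild-type C57Bl/6 mice, an inbred strain, were collected at 4 months of age under basal conditions, without any treatment, and the tendons of an animal were combined. There were 2 male arrays and 2 female arrays. The labels call the cells tenocytes, but whole tendons were homogenised, so the RNA of every cell in the tissue was measured. Whether the arrays of a sex came from different animals is not stated, so each p-value reflects only how far these samples lie apart, and that spread may be technical.

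Chemokines are small secreted proteins that guide cell movement. They bind G protein-coupled receptors on leukocytes and glycosaminoglycans on cell surfaces and matrix, which hold them in gradients. Those of the CC class, named for adjacent cysteines, attract mainly monocytes, eosinophils and lymphocytes. In the CXC class the cysteines are separated by another residue, and its members range from neutrophil attractants to the homeostatic stromal factor Cxcl12. Most are silent in resting tissue and are switched on by inflammatory signals, whereas a few are made by stromal cells at all times. In tendon, resident fibroblasts and macrophages are both known sources.

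Values are the deposited log2 RMA values, RMA being a method that summarises the probes of a probe set and normalises between arrays. The median over all 23521 probe sets with 1 symbol was between 2.44 and 2.47 on the 4 arrays. As a reference for signal without expression, 1394 olfactory and vomeronasal receptor genes, which are active in sensory neurons of the nose, had a 95th percentile between 2.74 and 2.90. Probe sets differ in their response, so the level of one gene is not set against that of another. Xist, the RNA of the inactive X chromosome, lay at 2.47 and 1.98 in the males and at 7.34 and 8.04 in the females, which fits the labelled sexes. Eif2s3y, a gene of the Y chromosome, lay at 4.46 and 4.96 in the males and at 2.86 and 1.65 in females 1 and 2. In female 1 it was thus above the receptor reference of that array, 2.78, so a value just above that reference does not by itself show expression. Of the tendon fibroblast markers, 11 of 13 lay above the receptor reference on every array, as did all 11 skeletal muscle genes.

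The 10 chemokines were divided by their pattern over the 4 arrays. A gene was called constitutive when every array lay at least 1 log2 unit above its own array median and the highest array was under 1 unit above the next. It was called high in a single array when the highest array stood at least 1 unit above the next and at least 1 unit above its array median. Genes with no array 1 unit above the median were called low, and the rest intermediate. By these rules 2 members were constitutive (Cxcl12 and Ccl11), 3 were high in a single array (Ccl2, Ccl3 and Ccl8), 1 was intermediate (Ccl4), and 4 were low (Ccl5, Ccl7, Cxcl1 and Cxcl10). Over all genes, 20.2% were constitutive, 1.89% high in a single array and 67% low. The constitutive count of the family was therefore near the background, its low count below it and its single-array count above it, as a description with no test.

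**Figure D1:**
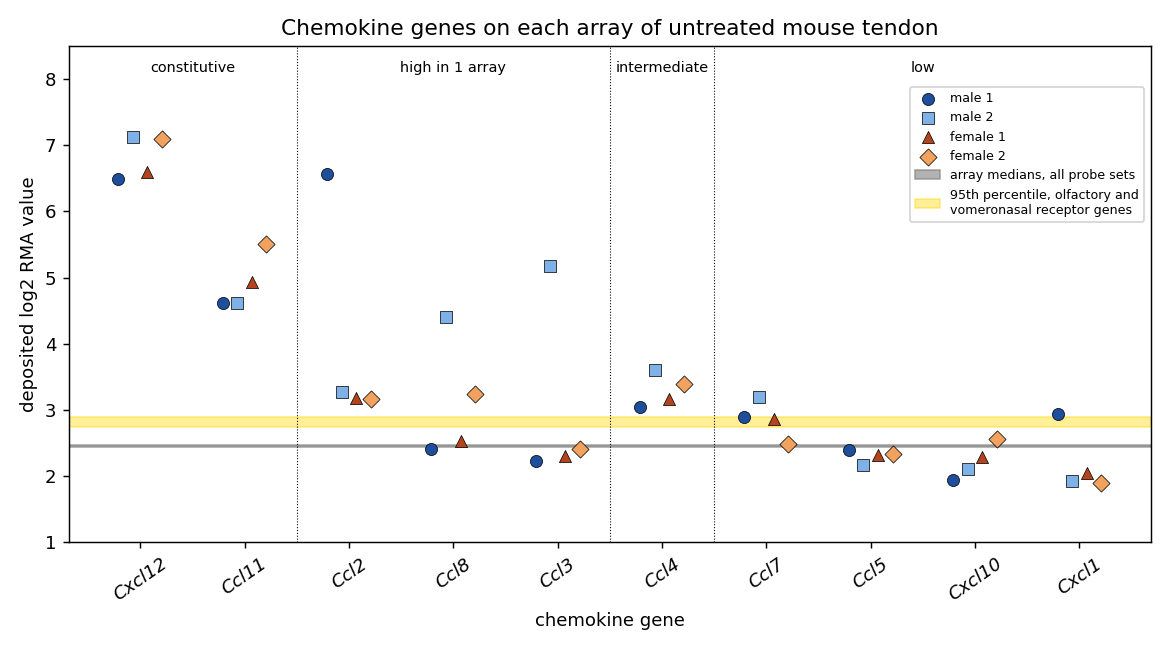
Deposited log2 RMA values of the 10 chemokine genes, with 1 point per array (2 male, 2 female); the grey band spans the medians of the 4 arrays and the yellow band the 95th percentiles of olfactory and vomeronasal receptor genes. Cxcl12 and Ccl11 lie above both bands on all arrays, Ccl2 stands out in male 1, and Ccl3 and Ccl8 stand out in male 2.

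Cxcl12, the stromal factor that binds Cxcr4 and retains haematopoietic cells in their niches, was at 6.48 in male 1, 7.13 in male 2, 6.59 in female 1 and 7.09 in female 2. The arrays spanned 0.65 log2 units, and the sexes overlapped completely, each with 1 lower and 1 higher array. The lowest array lay 4.03 units above its median. Ccl11, or eotaxin, which attracts eosinophils through Ccr3, was at 4.61 in both males, 4.93 in female 1 and 5.51 in female 2. Both female arrays lay above both males, and the highest array stood 0.57 above the next. The lowest excess over the array median was 2.15 units. Both genes thus gave signal in each of the 4 samples, with a spread under 1 log2 unit.

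Ccl2, the main attractant of monocytes that carry Ccr2, was at 6.57 in male 1, 3.27 in male 2, 3.18 in female 1 and 3.17 in female 2. Male 1 stood 3.30 log2 units (9.85-fold) above the next array, while the other arrays lay within 0.10 of each other. Those 3 arrays were between 0.70 and 0.80 above their medians and above the receptor reference. A single male array thus carried the whole excess, and the other male array resembled the females. Ccl7, a related monocyte attractant that is the neighbour of Ccl2 on chromosome 11, was at 2.90 in male 1 and 3.19 in male 2. In female 1 it was at 2.86 and in female 2 at 2.48. Its value in male 1 was below that in male 2, so it did not share the excess of Ccl2.

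Ccl3, which attracts monocytes and T cells, was at 2.23 in male 1, 5.18 in male 2, 2.30 in female 1 and 2.42 in female 2. Male 2 stood 2.76 units (6.79-fold) above the next array, and the other arrays lay below their medians. Ccl4, a close relative of Ccl3 and the next gene on the chromosome, was at 3.04 in male 1, 3.60 in male 2, 3.16 in female 1 and 3.39 in female 2. Male 2 was the highest array for Ccl4 too, by only 0.21. All 4 Ccl4 values lay above the receptor reference, although only male 2 was 1 unit above its median.

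Ccl8, a monocyte chemoattractant protein whose mouse form binds Ccr8, was at 2.40 in male 1, 4.41 in male 2, 2.53 in female 1 and 3.24 in female 2. Male 2 stood 1.17 units (2.25-fold) above female 2, which itself stood 0.71 above the next. Ccl8 is thus graded over the arrays, while Ccl2 and Ccl3 are each set apart in 1 array. Ccl8 was the member just inside the single-array rule. Cxcl1 lay just outside it, with a gap of 0.89 and a highest array only 0.48 above the median. Ccl4 was the member nearest the constitutive rule, with its arrays 0.59 to 1.14 above their medians. The highest array was male 2 for 5 of the 10 members and male 1 for 3, against 23.3% and 28.2% of all genes.

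The gap between the highest array and the next was then set beside that of all genes. The median gap over all genes was 0.14 log2 units and the 95th percentile was 0.71. A gap at least as wide as that of Ccl2 was found in 10 genes, Ccl2 included, and one at least as wide as that of Ccl3 in 20. For Ccl8 the number was 278. Male 2 had the fewest genes high in it alone, 37, of which Ccl3 had the widest gap. Male 1 had 151, female 1 had 83 and female 2 had 148, and Ccl2 ranked 8 among those of male 1.

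**Figure D2:**
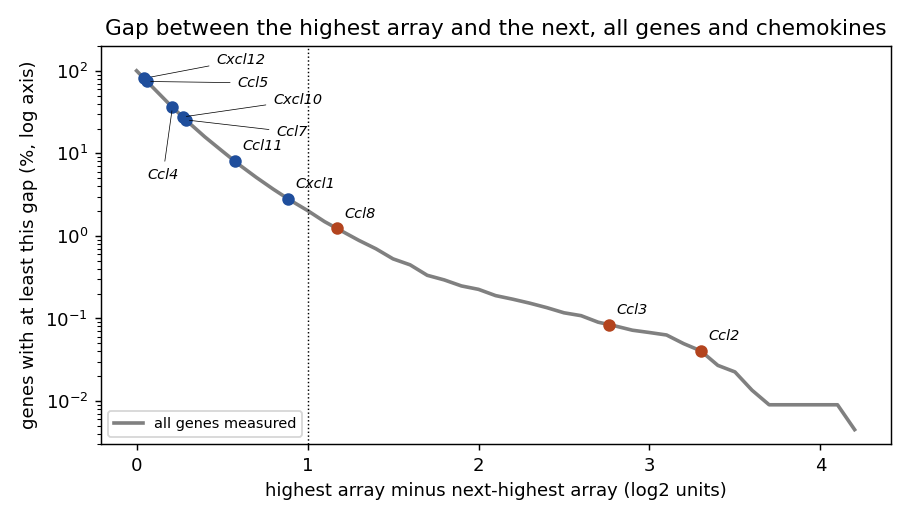
Share of all 22180 genes (log axis) whose highest array exceeds the next by at least the gap on the x axis in log2 units; points mark the chemokine genes, red for those high in a single array, and the dotted line is the threshold of 1. Ccl2 at 3.30 and Ccl3 at 2.76 lie far along the curve, and Ccl8 at 1.17 lies just past the threshold.

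Of the low members, Ccl5, which attracts T cells and monocytes and is best known from T cells and platelets, was at 2.40, 2.16, 2.33 and 2.34 in male 1, male 2, female 1 and female 2. All 4 values lay below the array medians. Cxcl10, an interferon-induced ligand of Cxcr3, was at 1.94, 2.10, 2.30 and 2.57 in the same order. The females were above the males, but no array reached the receptor reference, so no level was told from background. Cxcl1, a neutrophil attractant that binds Cxcr2, was at 2.93 in male 1 and at 1.93, 2.04 and 1.89 in male 2, female 1 and female 2. Male 1, the array in which Ccl2 was high, was thus also the highest for Cxcl1, and was its only value above the receptor reference. Above that reference on all 4 arrays were 4 of the 10 members (Cxcl12, Ccl11, Ccl2 and Ccl4), against 31.3% of all genes.

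Upstream sequences are shown for the steady Cxcl12 and for Ccl3 and Ccl8, both highest in male 2. They are from a RefSeq promoter table (GRCm38.p6) in which 5 of the 10 members were matched, and give the 250 bases before the annotated start, 5′ to 3′ in the direction of the gene. The windows are chr6:117168285-117168534 (plus strand), chr11:83649379-83649628 (minus strand) and chr11:82114935-82115184 (plus strand). Capitals mark TATAA in the gene's direction, starting 40 to 20 bases before the start.
Cxcl12: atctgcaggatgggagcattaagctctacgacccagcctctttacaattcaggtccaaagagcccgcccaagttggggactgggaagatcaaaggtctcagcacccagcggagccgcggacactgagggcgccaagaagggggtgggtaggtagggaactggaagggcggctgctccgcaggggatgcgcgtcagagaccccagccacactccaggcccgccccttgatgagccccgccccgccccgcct
Ccl3: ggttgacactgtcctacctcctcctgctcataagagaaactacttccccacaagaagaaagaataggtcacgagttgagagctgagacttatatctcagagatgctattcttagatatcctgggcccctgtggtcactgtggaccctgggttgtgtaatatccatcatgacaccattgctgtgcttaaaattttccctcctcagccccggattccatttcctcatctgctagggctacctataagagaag
Ccl8: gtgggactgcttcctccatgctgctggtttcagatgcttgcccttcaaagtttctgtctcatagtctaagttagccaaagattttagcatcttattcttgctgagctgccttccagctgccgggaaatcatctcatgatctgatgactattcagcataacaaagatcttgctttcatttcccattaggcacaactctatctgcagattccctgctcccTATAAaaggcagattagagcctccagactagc

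The window of Cxcl12 was 64.4% G and C with 14 CpG dinucleotides, and 81.6% of 32851 promoter windows had a lower G and C content. That of Ccl3 was 46.8% G and C with 2 CpG, and that of Ccl8 was 44.8% with 1. The median over all windows was 52.4% and 6 CpG. Of the low members, Cxcl1 had 59.2% and 10 CpG and Cxcl10 had 48% and 5 CpG. Windows above the median thus belonged to a constitutive and to a low member. TATAA at that place was found in Ccl8, 32 bases before the start, and in 3.52% of all windows. The window of Ccl3 holds TATAA as well, but nearer the start and outside that range, so it was not marked.

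Stretches of Cxcl1 and Cxcl10 are shown because both are textbook targets of NF-kB or interferon signalling, while their values here were low. The windows are chr5:90891145-90891194 (plus strand) and chr5:92348980-92349109 (minus strand). Capitals mark GGGANNNNCC, a kappa-B-type motif, and GAAANNGAAA, an interferon-response-type motif, searched on both strands; matches on opposite strands may overlap.
Cxcl1: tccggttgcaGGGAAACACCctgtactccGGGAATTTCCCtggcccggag
Cxcl10: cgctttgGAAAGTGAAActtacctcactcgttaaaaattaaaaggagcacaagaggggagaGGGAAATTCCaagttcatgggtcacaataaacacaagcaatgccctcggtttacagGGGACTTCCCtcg

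The kappa-B-type motif was present in 17.6% of all 250-base windows and the interferon-response-type motif in 2.98%. Neither was found in the windows of Cxcl12, Ccl3 or Ccl8. A match is only a match of letters, and binding was not measured.

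Among 26 further chemokine ligands measured of 28 listed, 1 was constitutive, 3 were high in a single array, 4 were intermediate and 18 were low. The constitutive one was Ccl9, a macrophage-derived ligand of Ccr1. It was at 4.30 and 4.34 in males 1 and 2 and at 4.80 and 5.34 in females 1 and 2. As with Ccl11, both females lay above both males and female 2 was the highest. Pf4, or Cxcl4, known from platelets and also made by macrophages, was at 6.12, 6.24, 6.31 and 7.55 in male 1, male 2, female 1 and female 2. It was well above the medians everywhere and was placed in the single-array class by an excess of 1.25 in female 2. Ccl17, a ligand of Ccr4 made by dendritic cells and macrophages, was at 4.91 in female 2 and between 1.88 and 2.56 elsewhere. Cxcl14, a homeostatic ligand of fibroblasts and epithelia, was at 7.09 in male 1, 5.47 in male 2, 5.35 in female 1 and 4.22 in female 2. It was present on every array, with its highest value in the same array as Ccl2.

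The interferon-induced ligands Cxcl9 and Cxcl11, which share Cxcr3 with Cxcl10, were intermediate, at 3.38 to 4.08 and 3.28 to 3.77, with male 2 the highest for both. Cxcl2, Cxcl3 and Cxcl5, which share Cxcr2 with Cxcl1, were low on all arrays. None of their values reached the receptor reference. Over all 36 chemokine ligands measured, male 2 was the highest array for 16, female 2 for 11, male 1 for 6 and female 1 for 3. The shares of all genes were 23.3%, 24.8%, 28.2% and 23.7% in that order of arrays. Of the 36 ligands, 22 were in the low class, where the order of the arrays may reflect background.

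Receptors were compared with the ligands by the known pairs. Of 17 typical receptors measured, 1 was constitutive, 1 was high in a single array, 3 were intermediate and 12 were low. Cxcr4, the receptor of Cxcl12, was at 2.95, 3.49, 2.99 and 3.41 in male 1, male 2, female 1 and female 2, above the receptor-gene reference on every array. The higher arrays, male 2 and female 2, were the same as for Cxcl12. Ackr3, the atypical receptor that scavenges Cxcl12, was constitutive at 4.53 to 4.92. Ccr3, the receptor of Ccl11, had a mean of 1.29 over the 4 arrays and lay below the median on each, so signal of the ligand was present on every array without signal from this receptor.

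Ccr2, the receptor of Ccl2 and Ccl7 on monocytes, was at 4.17 in female 2, 2.85 in male 1, 2.59 in male 2 and 2.52 in female 1. Its highest array was therefore not male 1, where Ccl2 was high. Ccr1, a receptor of Ccl3, was at 1.88 to 1.95 and Ccr8 at 2.59 to 2.93, so both were low in male 2 as elsewhere. Cxcr2 at 1.90 to 2.37 and Cxcr3 at 2.34 to 2.71 were low as well. The constitutive receptor was Cx3cr1, the fractalkine receptor of resident macrophages and monocytes, at 5.12 to 5.28. Of the 5 atypical receptors, which bind chemokines without classical signalling, Ackr1 (3.58 to 4.59), Ackr2 (3.56 to 4.54) and Ackr3 were constitutive. Female 2 was the highest array for all 5, against 24.8% of all genes. Its lead was 0.88 for Ackr2, 0.11 for Ackr1 and 0.06 for Ackr3, and 2 of the 5 lay below the medians on all arrays.

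**Figure D3:**
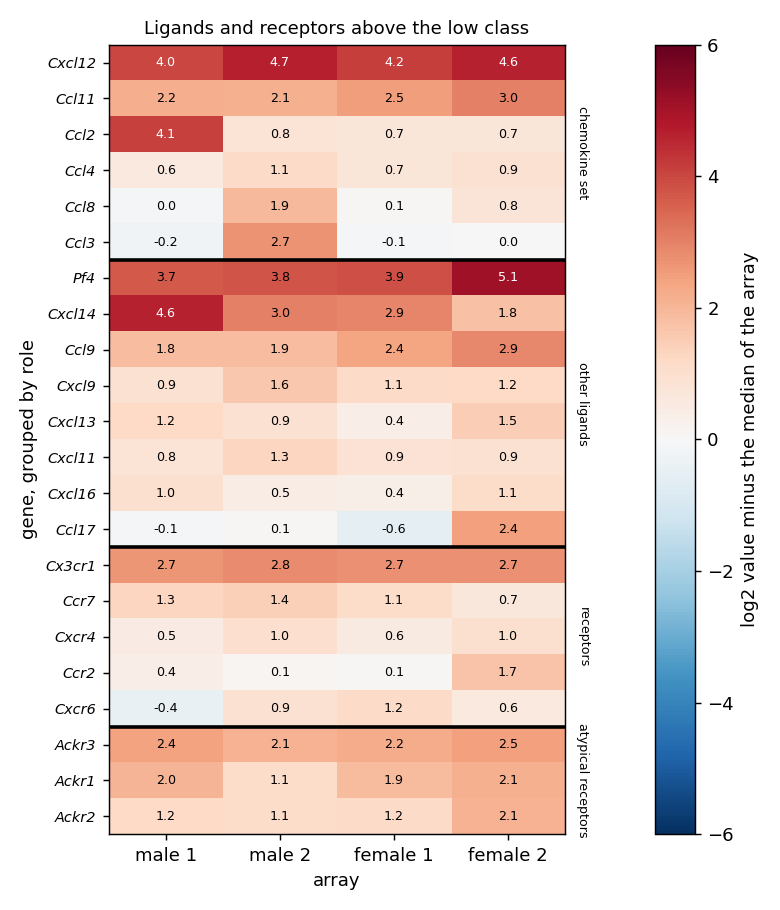
Log2 value minus the median of the array (colour and printed number) for each chemokine ligand and receptor outside the low class, by array, grouped into the 10-gene set, other ligands, receptors and atypical receptors. Cxcl12, Ccl11, Ccl9, Cx3cr1 and 3 atypical receptors are at least 1 unit above the median throughout. Ccl2, Ccl3 and Ccl17 stand out in 1 column each, and Pf4 and Cxcl14 are high throughout with 1 column higher still.

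Genes of inflammatory, interferon and immediate early responses, among them inhibitors and target genes, were described in the same way. Of 24 NF-kB pathway and inflammatory cytokine genes measured, 4 were constitutive, 2 were high in a single array and 16 were low. The cytokine genes Il1a, Il1b and Il6 lay below the array medians on all arrays, at 1.25 to 1.63, 1.70 to 1.92 and 1.25 to 1.52. Other cytokine genes of the list lay above the medians on all arrays: Tnf at 2.55 to 3.25, Lif at 2.56 to 2.68 and the alarmin gene Il33 at 3.08 to 3.82. Il33 was also above the receptor-gene reference throughout, Tnf on only 2 arrays and Lif on none. Both Tnf and Lif were in the low class. Nfkbia, the NF-kB inhibitor that NF-kB itself induces, was constitutive at 5.21 to 6.26. Zfp36, which encodes a protein that destabilises cytokine mRNAs, was constitutive at 5.97 to 6.55. The receptors of microbial products Tlr2 (4.03 to 4.57) and Tlr4 (3.76 to 4.11) were constitutive too. Myd88, their adaptor, was at 4.18 in male 1 and between 1.98 and 2.62 elsewhere, so its highest array was that of Ccl2. Rela, an NF-kB subunit gene, was at 5.47 in female 2 and at 3.74 to 4.42 in the others.

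Of 14 interferon response genes, 1 was high in a single array and 11 were low. That gene was Iigp1, an interferon-induced GTPase, at 4.72 in male 2 and 3.03 to 3.41 elsewhere, in the same array as Ccl3 and Ccl8. Male 2 was the highest array for only 2 of the 14, against 23.3% of all genes. Of 11 immediate early genes, which respond within minutes to a stimulus, 5 were constitutive: Dusp1 (6.38 to 6.65), Nr4a1 (4.37 to 5.89), Egr1 (3.47 to 5.90), Ier3 (4.24 to 5.32) and Jun (3.93 to 4.74). Between the male arrays these genes went both ways. Egr1 was at 5.90 in male 1 and 5.06 in male 2, and Jun at 3.93 and 4.74. Between the sexes, the list of 11 had means of 4.56 in both males, 3.84 in female 1 and 3.92 in female 2. Of these genes, 9 were lower in females. An unadjusted p under 0.05 (limma) was found for 4 of the 11, against 4.49% of all probe sets, and none was called after adjustment.

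Markers of the cells that could hold these transcripts were set beside them. Macrophage markers had means of 4.03, 4.06, 4.07 and 4.97 in male 1, male 2, female 1 and female 2. Female 2 was the highest array for 12 of 14, against 24.8% of all genes, and none lay below the medians on all arrays. The antigen-presenting list had means of 3.61, 3.31, 3.43 and 4.63, with H2-Aa, an MHC class II gene, at 6.10 in female 2 and 2.25 to 2.95 elsewhere. Another MHC class II gene, H2-Ab1, was constitutive, at 7.72 in male 1, 5.38 in male 2, 5.93 in female 1 and 8.19 in female 2. The highest array was female 2 for 4 of the 6 genes and male 1 for 2, against 24.8% and 28.2% of all genes. Those lists were highest in female 2, the array with the highest values of Ccl11, Ccl9, Ccl17, Pf4 and Ccr2. Female 2 also had the highest means of the adipocyte, tendon fibroblast, endothelial and platelet genes measured. The part of any of these lists in those values was not tested. Not every list was highest there. Skeletal muscle genes had a mean of 9.14 in female 2 and 9.77 to 9.92 in the others. No gene of that list had its highest value in female 2. The widest ranges of that list were those of Myh4 (7.35 in female 2, 10.20 to 10.61 elsewhere) and Actn3 (6.68 and 9.41 to 10.01). Acta1, of the same list, was at 11.09 in female 2 and 11.09 to 11.34 elsewhere. Adipocyte markers had means of 4.88, 5.56, 5.88 and 6.14 in male 1, male 2, female 1 and female 2, so male 1 was the lowest. In bulk tissue, fewer cells of a type and less RNA per cell cannot be told apart. Tendon fibroblast markers had means of 6.27, 5.79, 5.76 and 6.47 in the same order of arrays, and endothelial markers 3.68, 4.35, 4.11 and 4.45. For Cxcl12 the higher arrays were male 2 and female 2, as they were for the endothelial list, while male 1 and female 2 were the higher ones for the fibroblast list. The part of either list in the values of Cxcl12 was not tested.

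In male 1, where Ccl2 was high, the macrophage mean was the lowest of the 4 and the endothelial mean was 3.68, against 4.11 to 4.45 in the others. Neutrophil markers had a mean of 2.18 in male 1 and 1.86 to 1.91 elsewhere. S100a8, a calcium-binding protein of neutrophils and monocytes, was at 3.47 in male 1 and 1.64 to 1.81 in the others, but 8 of the 10 neutrophil markers lay below the median on every array. These included S100a9, the partner of S100a8, and Ly6g. In male 2, where Ccl3 and Ccl8 were high, none of the 14 macrophage markers had its highest value, against 23.3% of all genes. Lymphocyte markers had means of 2.07 to 2.20, with 9 of 12 below the median on all arrays. The 4 eosinophil markers were all below the medians, with means of 1.77 to 1.97, although Ccl11 was constitutive. For mast cells, 6 of 8 markers lay below the medians throughout. The part of these lists in the single-array values was not tested.

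**Figure D4:**
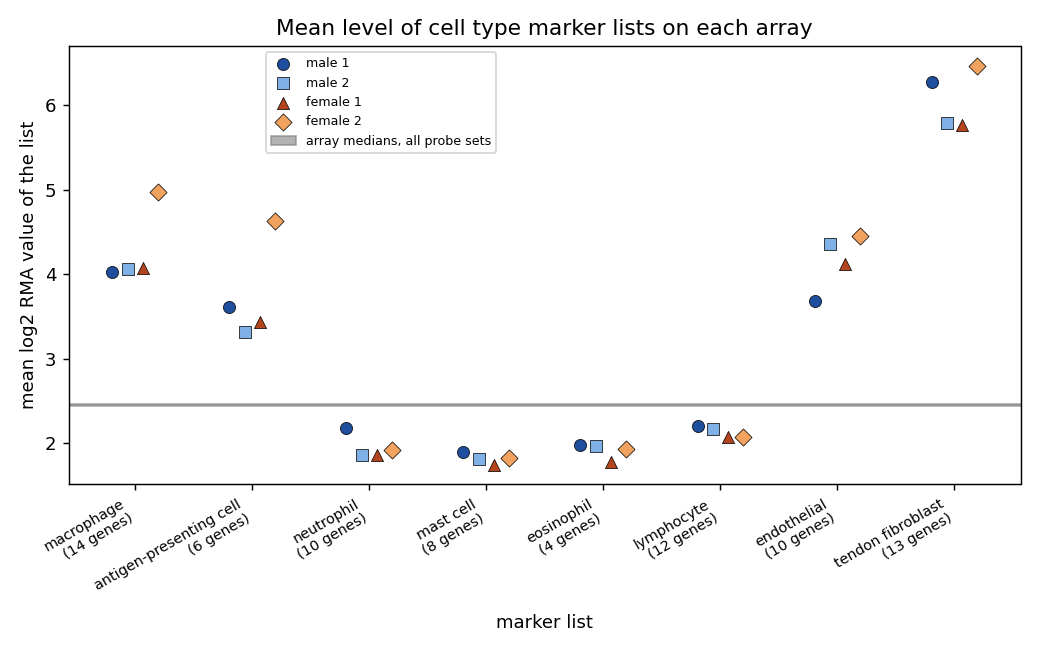
Mean log2 RMA value of each marker list on each array, with the number of genes measured in brackets; the grey band spans the 4 array medians. Macrophage (4.97), antigen-presenting (4.63), endothelial (4.45) and tendon fibroblast (6.47) lists are highest in female 2. Neutrophil, mast cell, eosinophil and lymphocyte lists lie below the medians on every array.

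The genes with the widest gaps in the arrays of the single-array members were then listed; they share the highest array, not the whole pattern. In male 1 the 10 widest gaps outside the family, without small RNAs, predicted genes and olfactory or vomeronasal receptors, were those of Pip4p1 (4.10), Zfp119a (3.62), Ifna4 (3.33), Senp8 (3.04), Mterf1b (3.00), Clec12a (2.77), Aadacl4 (2.48), Golga7 (2.48), Tfdp1 (2.42) and Ccdc25 (2.01). Clec12a, an inhibitory receptor of myeloid cells, was at 4.63 in male 1 and 1.80 to 1.86 in the other arrays, and Ifna4 encodes a type I interferon. In male 2 they were Zfp825 (2.12), Dcpp2 (2.02), Trmt5 (1.62), Alg8 (1.59), Gnptab (1.57), Lrrc51 (1.49), Golm2 (1.32), Iigp1 (1.31), Zfp955b (1.28) and Leng9 (1.26). Iigp1 was the only gene of the inflammatory or interferon lists among these 20.

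The sexes were compared for every gene with limma, which shares information on the spread between probe sets. No chemokine passed an adjusted p of 0.05 (limma, Benjamini-Hochberg over 23521 probe sets), and 0% of all probe sets did; at an unadjusted p under 0.05 the counts were 0 of 10 members and 4.49% of all probe sets. Xist itself was not called, with a difference of 5.47 log2 units, female minus male (SE 0.32, limma adjusted p = 0.772). A lack of calls in this fit therefore does not show that the sexes are alike. For Ccl2 the males averaged 4.92 ± 2.33 (SD, n = 2) and the females 3.18 ± 0.01 (SD, n = 2). Its difference, female minus male, was -1.74 log2 units (SE 1.12, 95% interval -4.74 to 1.26, limma adjusted p = 0.969). For Ccl3 the averages were 3.71 ± 2.08 (SD, n = 2) and 2.36 ± 0.08 (SD, n = 2), and the difference was -1.35 (SE 1.00). For Ccl8 the difference was -0.52 (SE 0.73). For these members the 2 male arrays differed from each other by more than the sexes did.

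The constitutive members had narrower intervals. Males averaged 4.61 ± 0.002 (SD, n = 2) for Ccl11 and females 5.22 ± 0.41 (SD, n = 2), and the difference was 0.61 (SE 0.24, 95% interval -0.03 to 1.25, limma adjusted p = 0.969). The averages of Cxcl12 were 6.81 ± 0.46 (SD, n = 2) and 6.84 ± 0.35 (SD, n = 2), which differed by 0.03 (SE 0.31, 95% interval -0.79 to 0.86, limma adjusted p = 0.999). The interval of Cxcl12 leaves room for a change in either direction of under 1 log2 unit. Among the others, Cxcl10 differed by 0.41 (SE 0.17), Cxcl1 by -0.46 (SE 0.37), Ccl7 by -0.37 (SE 0.21), Ccl5 by 0.05 (SE 0.16) and Ccl4 by -0.05 (SE 0.25).

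The arrays of the sexes did not overlap for 4 of the 10 members, against 33.3% of all genes. Ccl11 and Cxcl10 were higher in both females (15.7% of all genes were so), and Ccl2 and Ccl7 in both males (17.6%). For Ccl2 the separation rested on 3.27 in male 2 against 3.18 in female 1. The family had 4 members higher and 6 lower in females, with a median difference of -0.21, beside -0.01 for all genes. No gene of the further ligands, the receptors or the atypical receptors was called in either direction by limma over all probe sets. At an unadjusted p under 0.05 there was 1 further ligand (Ccl9, 0.76, SE 0.23) and 1 receptor (Cxcr2, 0.42, SE 0.14). With 2 arrays per sex, an exact permutation test cannot give a two-sided p below 0.333.

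**Figure D5:**
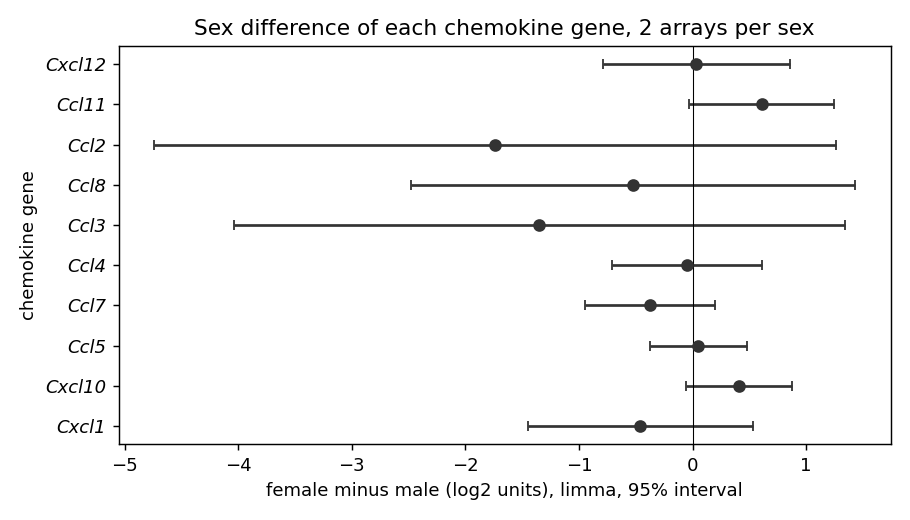
Female minus male difference of each chemokine gene in log2 units, with the 95% interval from limma (2 arrays per sex). Every interval includes 0; those of Ccl2 (-4.74 to 1.26), Ccl3 and Ccl8 are the widest, and the interval of Ccl11 (-0.03 to 1.25) has its lower end near 0.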

How the data were processed

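The authors deposited log2 values, a column for each array, from the Mouse Gene ST 2.1 design. Per the labels' protocols, cDNA was amplified from 12.5 ng of total RNA. RMA in the oligo package is named in the submitters' processing notes; versions and the level of summarisation are not given in the sources used here. No further normalization was applied. Of 41345 rows, 23521 had exactly 1 gene symbol in the platform annotation, 1814 had several and 16010 had none; for each gene the probe set of highest mean over the arrays was used. Precision is limited by the number of arrays, with a median SE of 0.19 for a log2 difference between the sexes.

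Sex was fitted as the only term with limma 3.58.1 in R 4.3.3, with Benjamini-Hochberg adjustment over the 23521 probe sets. The fit and the pattern rules were tested on simulated data. The members, lists, thresholds and naming rule were chosen with earlier results of these data known. All 10 members were named; from each pathway list, genes that were constitutive or high in a single array; and for male 1 and male 2 the 10 genes of widest gap. Further receptors and ligands are named as partners of the members. The cytokine genes Il1a, Il1b, Il6, Tnf, Lif and Il33 were named after their values were seen. So were the ligand and receptor with an unadjusted p under 0.05, Clec12a, S100a8, H2-Aa, H2-Ab1, Myh4, Actn3 and Acta1. Lists of pericyte and smooth muscle, adipocyte, and platelet and erythrocyte markers were also used. Their means per array ran from 4.20 to 4.44, 4.88 to 6.14 and 2.27 to 2.96. Of the last list, only 2 of 6 genes were measured, the platelet genes Gp9 and Itga2b. No erythrocyte marker was measured. Gene names and neighbours were taken from the RefSeq table of GRCm38.p6, which held all 10 members. The replicate numbers are not stated to pair the arrays, and the deviations of same-numbered arrays correlated at -0.06. Alternatives were other sets of probe sets, priors, normalizations, weights, thresholds, a replicate block and leaving out each array. Plots were made in Python 3.11.15 with matplotlib 3.10.9.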

Additional observations from a re-analysis of the deposited data

How the results depend on the processing

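Limma called 0 members and 0 probe sets under every alternative that kept all arrays. These were all rows, probe sets above the median level (where Ccl5, Cxcl1 and Cxcl10 were not tested) and a trended and robust prior. They also included array weights, an adjusted p under 0.1, quantile normalization, median centring, gene means and the replicate block. Because Xist was not called in the main fit either, these counts do not show that the sexes are alike. Among the alternatives that kept all arrays, only quantile normalization and median centring moved the differences of the members, and no member changed sign under them. The others, the replicate block and gene means included, leave each difference of a member as it is by construction. They are therefore no check on its sign. Leaving out each array in turn gave -2.82 to 0.13 for Ccl3, -0.33 to 0.23 for Ccl4, -0.066 to 0.17 for Ccl5, -1.53 to 0.48 for Ccl8, -0.96 to 0.043 for Cxcl1 and -0.29 to 0.36 for Cxcl12, all of which changed sign; Ccl3 and Ccl8 did so without male 2, and Cxcl1 without male 1. Ccl2 ranged from -3.39 to -0.09, the latter without male 1. Ccl11 (0.32 to 0.89), Ccl7 and Cxcl10 kept their sign.

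Constitutive members numbered 2 under every alternative that kept the thresholds at 1 log2 unit and used the array median. At thresholds of 1 log2 unit the single-array count was 3 with all arrays and 1 to 3 when arrays were left out. Without male 2, Ccl3 and Ccl8 were low and only Ccl2 remained. With 0.5 in place of 1, Ccl11 joined the single-array class, which then held 4 members, and Ccl4 the constitutive class. With 1.5, Ccl8 was intermediate and the single-array class held 2. With the receptor reference in place of the median, chosen after seeing the data, 3 members were constitutive, Ccl4 included. The number of arrays, 2 per sex, limits every comparison.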

Other observations

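Small RNA genes (microRNAs, snoRNAs and related RNAs) made up 2.56% of the genes measured and 9.07% of those high in a single array. The single-array class held 6.69% of small RNA genes and 1.76% of the rest, as a description with no test.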
